A study of Saccharomyces cerevisiae with 12 samples.

Results

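The transcriptional response to the mating pheromone α-factor was compared between 2 strains of the budding yeast Saccharomyces cerevisiae. These were MP 384, a MATa strain, and LBHY29, labelled MATα-playing-a. For each gene the response of a strain was its level with α-factor minus its level without, on the scale of log2(FPKM + 1), where FPKM (fragments per kilobase of gene, scaled to a fixed number of mapped fragments) is a level corrected for gene length and library size. The quantity examined was the response of MATα-playing-a minus that of MATa. All 12 libraries of the series entered, and the genes with a mean of at least 1 FPKM over the libraries were tested, 6608 of the 7126 listed. At the edge of that filter YDL162C, at a mean of 1.03 FPKM, was tested and YNR076W, at 0.987, was not.

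All cells grew in rich medium (YPD) with 0.1% bovine serum albumin at 30 °C. Unstimulated cells were taken in log phase, and what was left of the culture then received 10 nM α-factor for 2 h before a second harvest. There were 4 groups of 3 biological replicates: MATa without and with α-factor, and MATα-playing-a without and with it. The sample labels name the second strain MATα-playing-a, the design text calls it MATα, and its alleles beyond the strain name are not given in the sources used here. RNA came from whole cultures, in which fewer cells of a type and less RNA per cell cannot be told apart.

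In a cells the general transcription factor Mcm1 turns on the a-specific genes. In α cells the MAT locus codes for α1, which turns on the α-specific genes together with Mcm1, and for α2, which represses the a-specific genes at operators where it binds beside Mcm1. α-factor binds the receptor Ste2 on a cells, and a MAP kinase cascade then activates the transcription factor Ste12, which binds pheromone response elements in its target promoters, and arrests the cell cycle in G1. The labelled cell types were checked against their defining genes. MATALPHA1, the gene of α1, stood at 255 to 307 FPKM in unstimulated MATα-playing-a and at 0, 0 and 2.72 in unstimulated MATa. HMRA1, at the silent HMR locus, is a copy of the gene of the a1 protein that a cells make. It stood at 421 to 476 FPKM in unstimulated MATa and was listed at 0 in all 6 MATα-playing-a libraries. No a1 gene at MAT was among the tested genes of the mating-type loci, so reads from MAT and from HMR cannot be told apart here. STE2 had a mean of 565 FPKM in unstimulated MATα-playing-a and 3674 in unstimulated MATa. Some genes went against the cell type that the mating-type locus gives: BAR1, the a-cell protease that degrades α-factor, was listed at 0 in all 6 MATa libraries, and the α-factor genes MF(ALPHA)1 and MF(ALPHA)2 and the a-factor receptor gene STE3 were listed at 0 in all 6 MATα-playing-a libraries.

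Operators of a-specific genes are shown first because members whose responses differed between the strains (ASG7 and MFA1) and members that did not pass the test (MFA2 and STE2) all carry letters of Mcm1 and α2 sites. Each line gives the 5′ to 3′ strand of the gene, read from the R64 genome of RefSeq. The capitals CC and GG mark the Mcm1 core, in which they stand 6 bases apart, and the capitals CATGT, or ACATG on the other strand, mark half-sites of α2 that start within 20 bases of the first base of the core (where both strands match, they overlap as ACATGT).
ASG7, chrX:101888-101947, minus strand: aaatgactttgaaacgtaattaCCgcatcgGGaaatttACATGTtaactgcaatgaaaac
MFA1, chrIV:1384930-1384989, plus strand: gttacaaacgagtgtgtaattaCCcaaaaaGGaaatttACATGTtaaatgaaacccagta
MFA2, chrXIV:352151-352210, plus strand: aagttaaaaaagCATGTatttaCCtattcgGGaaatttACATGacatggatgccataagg
STE2, chrVI:82340-82399, plus strand: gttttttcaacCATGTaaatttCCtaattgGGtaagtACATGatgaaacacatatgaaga
A core with such a half-site lay in the 300 bases before the start codon of all 7 a-specific genes and in 92 of 6020 promoters of that length (1.5%). Half-sites were marked only after the core in ASG7 and MFA1, and on both sides of it in MFA2 and STE2. Whether this bears on the responses was not tested. A match of letters is a description and not a measured binding site.

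The differences of responses were centred near 0. Their distribution had a median of 0.02 and an SD of 0.56 over genes, and 6065 genes (91.8%) lay within 0.5 of 0. Between the responses, which share no library, Pearson's r over genes was 0.866, and 0.956 over the 6270 genes above 0 in every library; genes are not independent replicates. Of 1625 genes whose response was at least 2-fold in either strain, 1546 had the same sign in both. A linear model across all genes (limma, 2-sided, Benjamini-Hochberg adjusted p below 0.05) found 32 genes with a difference, or 0.484% of those tested. In 27 the response of MATα-playing-a was higher (0.409%) and in 5 it was lower (0.0757%). At an unadjusted p below 0.05 there were 771 genes (11.7%), 518 higher and 253 lower. Of the 32 genes, 20 differed by at least 1 on the log2 scale, 28 had the strains farther apart with α-factor than without, and 4 had them closer. In 20 of the 32 the strains differed by less than 0.5 without α-factor. For such genes a called difference mostly places the strains farther apart with α-factor. The share over all tested genes was not computed, so these counts are no result about the strains. When libraries of the same strain and replicate number were treated as 1 culture, which the labels do not state, 15 genes passed, 14 of them among the 32. These 14 were ASG7, MFA1, YLR041W, GYP8, SVS1, INO1, PST1, SNL1, HMLALPHA2, MATALPHA2, HMRA2, SAG1, YBR141W-A and snR39. The others of the 32 did not pass in that fit (limma adjusted p = 0.0545 to 0.223).

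**Figure D1:**
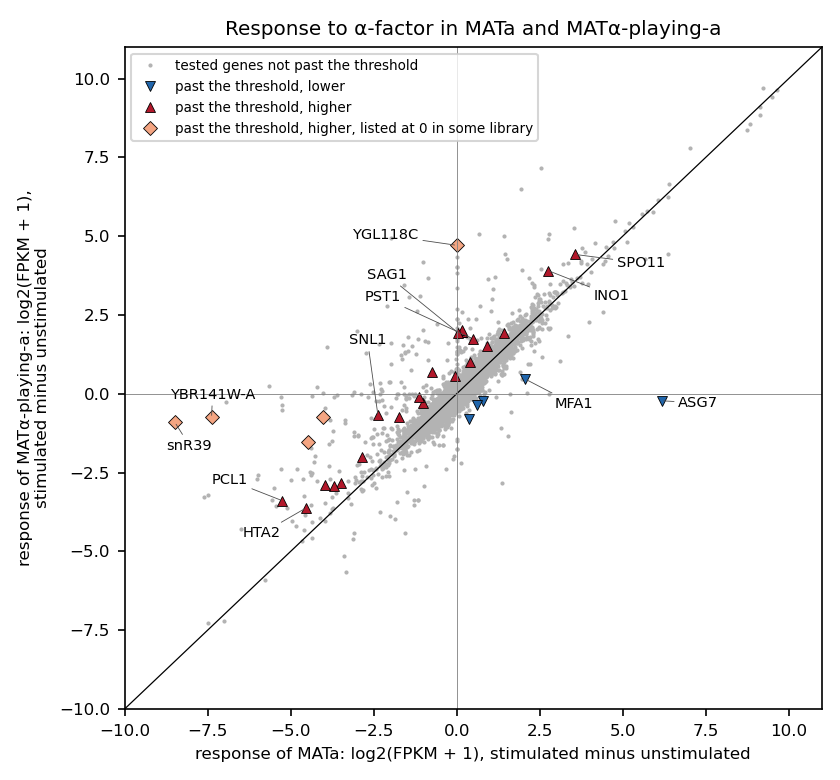
Response to α-factor of each of 6608 genes in MATa (x axis) and MATα-playing-a (y axis), as the difference of group means of log2(FPKM + 1), stimulated minus unstimulated, with the line of equal responses. Triangles and diamonds are the 32 genes past the threshold; most genes lie along the line (r = 0.866), and ASG7 lies farthest below it.

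Among genes past the threshold and above 0 in all libraries, the largest difference was that of ASG7, an a-specific gene whose product acts on pheromone signalling after mating (YJL170C, chrX:101150-101779). MATa libraries had 128, 108 and 101 FPKM without α-factor and 8049, 8740.2 and 7591 with it. MATα-playing-a libraries had 19.1, 16 and 17 FPKM without and 18.4, 13.3 and 13.0 with it. The stimulated MATa libraries thus stood apart from all others, while the stimulated and unstimulated MATα-playing-a libraries overlapped. The response of MATα-playing-a was lower by 6.39 on the log2 scale (difference of responses -6.39 ± 0.19 SE, limma adjusted p = 1.0e-08), an 83.6-fold gap between the responses.

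MFA1, the first of the paired genes for the pheromone a-factor (YDR461W, chrIV:1385176-1385286), also differed. MATa libraries had 8785, 8527 and 5406 FPKM without α-factor and 32534, 30639 and 29259.5 with it. MATα-playing-a libraries had 2909, 3165 and 3865 FPKM without and 4362, 5024 and 4334 with it. No groups overlapped, and the step from unstimulated to stimulated was 4.07-fold in MATa and 1.38-fold in MATα-playing-a. The difference of responses was -1.58 ± 0.24 (adjusted p = 0.0121). The gene is 111 nt long, and FPKM of genes this short rests on few possible fragment positions.

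MFA2, the second a-factor gene, missed the threshold. It stood at 7282 to 7902 FPKM in unstimulated and 15209.6 to 21471 in stimulated MATa, and at 116 to 221 and 127 to 183 FPKM in MATα-playing-a, where the groups overlapped. Its difference of responses was -1.29 ± 0.30 (95% confidence interval -1.95 to -0.62, adjusted p = 0.124), and it passed without MATα-playing-a unstimulated replicate 1 (-1.53, adjusted p = 0.0334).

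The other a-specific genes did not pass. For STE2 MATa libraries had 3600.3, 4169 and 3254 FPKM without α-factor and 8483, 8479 and 7759 with it, and MATα-playing-a libraries had 633, 550.2 and 512 without and 1878, 1651 and 1937 with it. The receptor gene was thus higher with α-factor in every library of both strains, by 2.24-fold and 3.23-fold, and lower in MATα-playing-a throughout. Its difference of responses was 0.52 ± 0.15 (interval 0.19 to 0.85, adjusted p = 0.243), of opposite sign to that of ASG7 and MFA1. STE6, the a-factor exporter, had means of 521 and 627 FPKM in MATa and of 25.6 and 31.9 in MATα-playing-a, with a difference of responses of 0.04 (interval -0.28 to 0.37). AGA2, a subunit of a-agglutinin, stood at 997 to 1176 FPKM in unstimulated and 7040.4 to 10770.4 in stimulated MATa. In MATα-playing-a AGA2 was listed at 0 in all unstimulated libraries and at 20.0, 14.5 and 0 in the stimulated ones, so that its fitted difference of -0.19 ± 1.2 could hardly be read. BAR1 stood at 27.8 to 28.2 FPKM in unstimulated and 46.4 to 54.7 in stimulated MATα-playing-a. Of the 7 a-specific genes, 2 had a lower response in MATα-playing-a, none a higher one, and their median was -0.19 against 0.02 for all genes; that median ran from -1.28 to 0.05 over the alternatives, so its sign was not stable, and it was 0.05 without MATα-playing-a stimulated replicate 3 and -0.99 without its replicate 1.

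**Figure D2:**
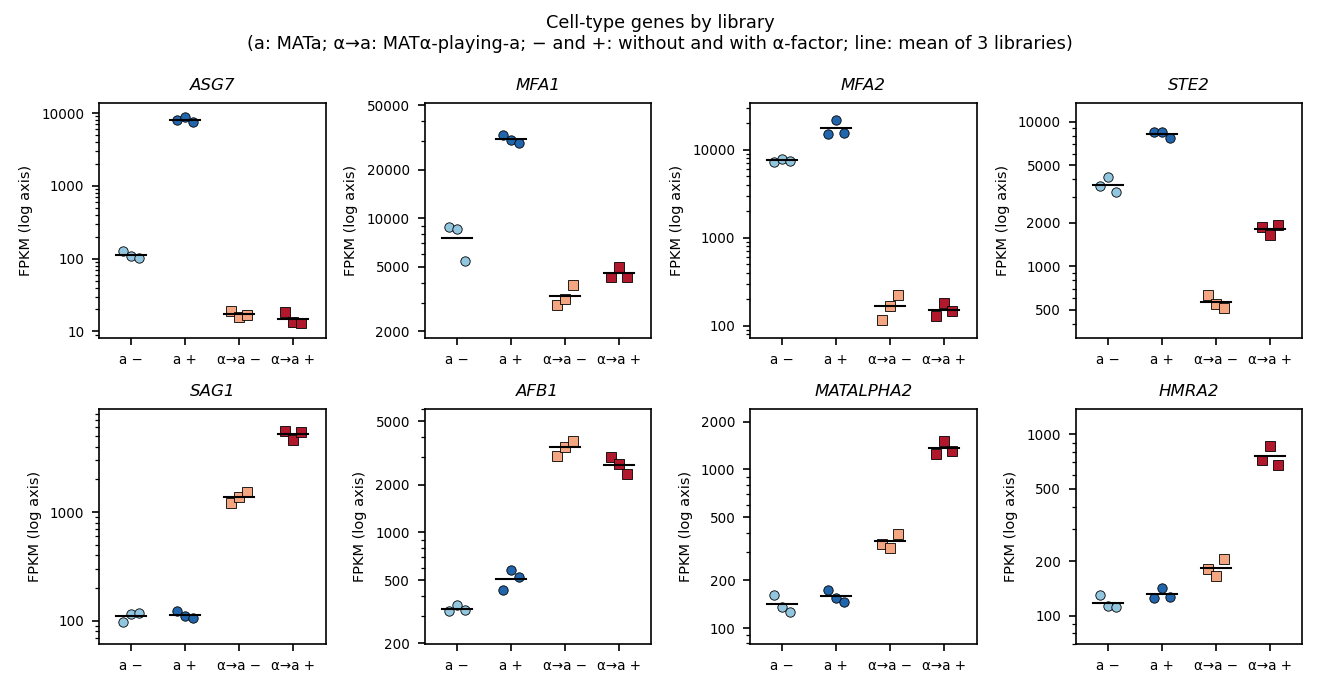
FPKM (log axis) of 8 genes of cell type in each of the 12 libraries, by strain and treatment; points are libraries and lines are means of 3. ASG7 stood at 7591 to 8740.2 FPKM in stimulated MATa and at no more than 128 elsewhere, whereas SAG1, MATALPHA2 and HMRA2 were highest in stimulated MATα-playing-a.

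Of the α-specific genes SAG1 and AFB1 differed, in opposite directions. SAG1, the gene of α-agglutinin, which binds the a-agglutinin of the partner (YJR004C, chrX:442909-444861), had 98.4, 115 and 118 FPKM in MATa without α-factor and 124, 112 and 107 with it. MATα-playing-a libraries had 1215, 1368 and 1514 FPKM without and 5595, 4597 and 5459 with it. The MATa groups overlapped and the MATα-playing-a groups did not. The difference of responses was 1.88 ± 0.15 (adjusted p = 1.3e-04), and stimulated MATα-playing-a stood 45.7-fold above stimulated MATa.

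AFB1, whose product binds a-factor outside the cell (YLR040C, chrXII:228908-229582), had 318, 347 and 325 FPKM in MATa without α-factor and 431, 584 and 521 with it. MATα-playing-a libraries had 3042, 3466 and 3764 FPKM without and 2983, 2713 and 2321 with it. The direction was opposite in the strains and no groups overlapped, although 3042 and 2983 lay close. The difference of responses was -0.98 ± 0.17 (adjusted p = 0.0369), and 9 of the 12 fits with a library left out lost the call (adjusted p up to 0.107). YLR041W (chrXII:229377-229697) overlaps AFB1 and had the same pattern: 178 to 192 and 235 to 239 FPKM in MATa, 1491 to 1900.1 and 915 to 1091 in MATα-playing-a, and a difference of -1.18 ± 0.13 (adjusted p = 0.00148). The reads' strand is unknown, and reads of these overlapping genes cannot be told apart.

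Of the 5 α-specific genes, 1 was higher and 1 lower, with a median of -0.05 that ran from -0.18 to 0.16 over the alternatives, so its sign was not stable; it was 0.16 without MATa stimulated replicate 2. MF(ALPHA)1 was listed at 7.96, 8.52 and 3.64 FPKM in unstimulated MATa and at 0 in the other 9 libraries. STE3 stood at 8.40 to 12.2 FPKM in unstimulated and 14.6 to 25.6 in stimulated MATa, and MF(ALPHA)2 at 78.1 to 79.9 and 67.9 to 109. These genes, at 0 throughout MATα-playing-a, did not pass.

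The mating-type loci differed at the α2 sequence. MATALPHA2 (YCR039C, chrIII:199546-200178) had 161, 136 and 127 FPKM in MATa without α-factor and 173, 155 and 146 with it. MATα-playing-a libraries had 340.2, 320.4 and 393 FPKM without and 1256, 1513 and 1298 with it. The MATa groups overlapped, and the MATα-playing-a groups lay apart from each other and from MATa, with a difference of responses of 1.79 ± 0.16 (adjusted p = 1.9e-04).

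HMLALPHA2, the silent copy at HML, is identical over all 633 bases and its levels matched almost to the digit, so the copies cannot be told apart; they are listed as separate genes among the 32. HMRA2, at the silent HMR locus, is identical over its 360 bases to MATALPHA2 from base 274 on. It stood at 112 to 129.6 and 126 to 143 FPKM in MATa and at 165 to 205 and 675 to 868 in MATα-playing-a (difference 1.87 ± 0.16, adjusted p = 1.5e-04). MATALPHA1, whose 528 bases equal those of HMLALPHA1, stood at 255 to 307 and 664 to 837 FPKM in MATα-playing-a. With MATa libraries at 0, 0 and 2.72 and at 0, 0 and 4.57, its difference of 1.18 ± 0.90 did not pass (interval -0.81 to 3.16). It passed with a constant of 10 in place of 1 (1.28, adjusted p = 0.0299). HMRA1, at 421 to 476 FPKM in unstimulated and 519 to 695 in stimulated MATa, did not pass, with a difference of -0.37 (interval -0.80 to 0.06). Of the 6 genes of the mating-type loci, 3 were higher in MATα-playing-a and none lower, with a median of 1.54. These 3 share bases of the α2 sequence and are not separate results. MATALPHA1 was at or near 0 in MATa, and the source of the MATALPHA2 level there was not tested.

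None of the 31 genes in the pheromone-induced list passed in this contrast. Their difference of responses had a median of 0.09 against 0.02 for all genes and ran from -0.53 to 0.70. FIG1, a membrane protein of mating cells, had 10237, 11572 and 10174 FPKM in stimulated MATa and 11082, 11905 and 10388 in stimulated MATα-playing-a, from 12 to 22.7 and 11.1 to 13.8 unstimulated. The stimulated groups overlapped, and the difference was 0.49 with an interval of -0.04 to 1.03. AGA1, the anchor subunit of a-agglutinin, had the highest value of the list, 0.70 ± 0.23 (interval 0.21 to 1.2, adjusted p = 0.306). Its stimulated levels overlapped, at 10195 to 12052 FPKM in MATa and 8807 to 11297 in MATα-playing-a, and its unstimulated ones did not, at 356 to 527 and 194 to 261. KAR4, a transcription factor of mating, differed by 0.41 (0.12 to 0.70), PRM3, a protein of nuclear fusion, by 0.23 (-0.08 to 0.54), and SCW10, a cell wall protein, by 0.08 (-0.21 to 0.36). These intervals are what the data allow and a missed threshold does not show equal responses.

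Of the 24 genes of the pheromone pathway, from receptor to transcription factor, none passed either, and their median was 0.04. FUS3, the MAP kinase of mating, differed by 0.31 ± 0.14 and STE12 by 0.28 ± 0.14. SST2, which turns the signal down, had means of 496 and 2069 FPKM in MATa and of 492 and 2068 in MATα-playing-a (difference 0.01 ± 0.10), and FAR1, which links the signal to G1 arrest, differed by 0.01 ± 0.13. None of the 16 genes of the haploid-specific list, which a/α diploids repress, passed (median 0.08).

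Of the 36 genes of the G1/S transition, PCL1, TOS4, MCD1 and SVS1 had a higher response in MATα-playing-a. None had a lower one, and the median of the list, 0.03, was near that of all genes. PCL1, a cyclin of the kinase Pho85 (YNL289W, chrXIV:87897-88736), had 403, 506 and 456 FPKM in MATa without α-factor and 13.5, 8.16 and 11.7 with it. MATα-playing-a libraries had 387, 399 and 473 FPKM without and 53.4, 27.4 and 40.8 with it. Unstimulated levels overlapped between strains and stimulated ones did not, being 3.64-fold higher in MATα-playing-a. The difference was 1.87 ± 0.32 (adjusted p = 0.0272), and 7 of 12 fits with a library left out lost the call (adjusted p up to 0.0928).

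TOS4, which codes for a forkhead-domain protein of G1/S (YLR183C, chrXII:520543-522012), had 391, 322 and 374 FPKM in MATa without α-factor and 23.6, 23.9 and 19.9 with it. MATα-playing-a libraries had 346, 328 and 373 FPKM without and 47.6, 42.8 and 47.3 with it. As for PCL1, the strains overlapped without α-factor and lay apart with it (difference 1.05 ± 0.14, adjusted p = 0.00511). MCD1, a subunit of cohesin, had means of 315 ± 8.07 and 23.6 ± 1.44 FPKM in MATa and of 327 ± 19.8 and 42.7 ± 3.07 in MATα-playing-a (SD, n = 3; difference 0.78 ± 0.11, adjusted p = 0.0085). SVS1, a cell wall protein, had means of 1182 ± 109.9 and 589.7 ± 48.7 FPKM in MATa and of 1102 ± 105 and 899 ± 31.6 in MATα-playing-a (difference 0.71 ± 0.13, adjusted p = 0.0401), and 10 of 12 left-out fits lost it. Other members had large differences that did not pass, among them TOS6 at 1.35 ± 0.34 and YOX1 at 1.11 ± 0.26. The G1 cyclin gene CLN1 was at 0.44 ± 0.14, and HCM1, at -0.42 ± 0.23, was the lowest of the list.

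Of the 10 histone genes, which are transcribed in S phase, HTA2 alone passed. This core histone gene (YBL003C, chrII:235394-235792), had 5759.7, 6234 and 6878 FPKM in MATa without α-factor and 273, 275 and 253 with it. MATα-playing-a libraries had 5458, 4902 and 6359 FPKM without and 449.6, 450.1 and 438 with it, so that only the stimulated groups lay apart between strains. The difference was 0.92 ± 0.13 (adjusted p = 0.00928). The value was above 0 in all 10 genes, with a median of 0.37 that became 0.21 after quantile normalisation. HTB2, the neighbouring gene of its dimer partner, was at 0.73 ± 0.18 and HHF2 at 0.10 ± 0.11; these genes have near-identical paralogs, among which reads can be shared.

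In the list of genes of the M/G1 boundary 2 of 19 had a higher response and none a lower one (median 0.06). PCL9, another Pho85 cyclin, had means of 369 ± 11.6 and 32.1 ± 2.38 FPKM in MATa and of 372 ± 27.4 and 51.2 ± 2.46 in MATα-playing-a (difference 0.65 ± 0.11, adjusted p = 0.0264). PIR1, a cell wall protein, had means of 4396 ± 421 and 610.3 ± 103 FPKM in MATa and of 4078 ± 300.4 and 1027 ± 72.9 in MATα-playing-a (difference 0.87 ± 0.16, adjusted p = 0.0499). Both strains were lower with α-factor, and the stimulated groups did not overlap for either gene; PCL9 lost its call in 9 and PIR1 in 11 of the 12 left-out fits. None of the 20 genes of the G2/M list passed (median 0.04).

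**Figure D3:**
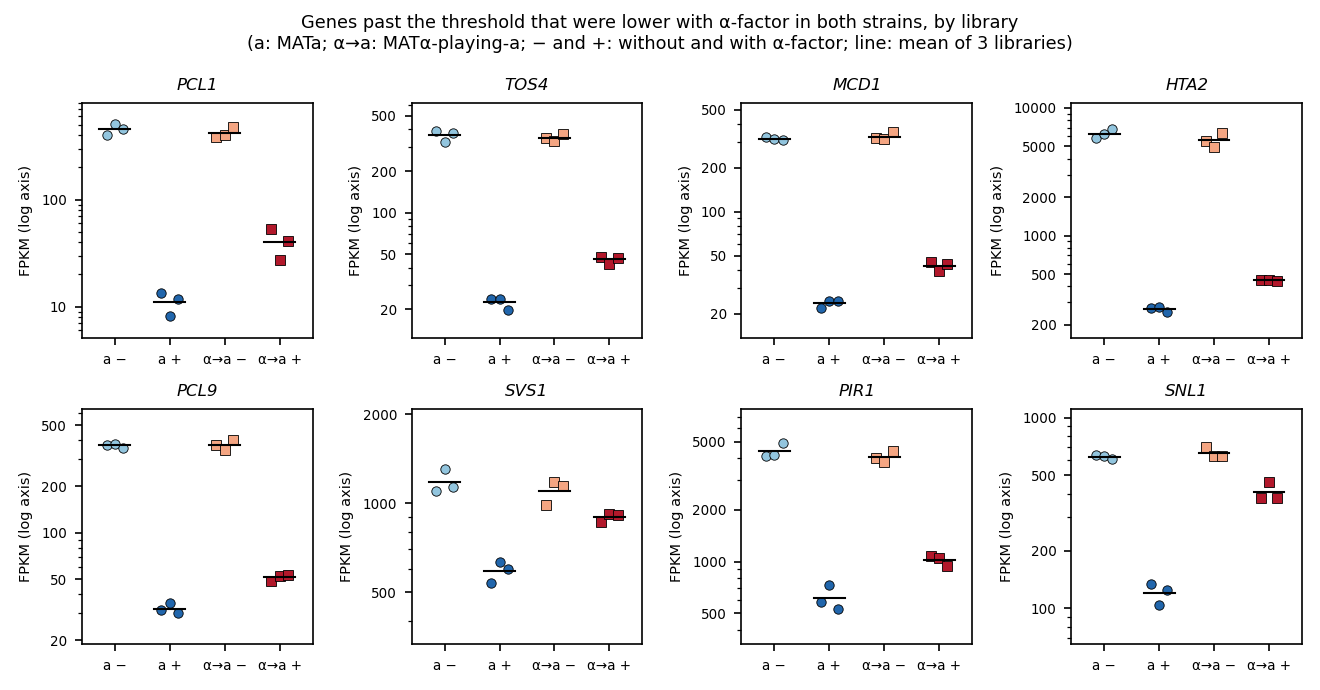
FPKM (log axis) of 8 genes that were lower with α-factor in both strains, in each of the 12 libraries; points are libraries and lines are means of 3. For each gene the unstimulated strains overlap and the stimulated MATα-playing-a libraries lie above the stimulated MATa libraries, as for PCL1 at 27.4 to 53.4 against 8.16 to 13.5.

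A second set of genes had higher levels with α-factor and a larger step in MATα-playing-a. INO1, the first enzyme of inositol synthesis (YJL153C, chrX:134332-135933), had 37.3, 34.3 and 33.8 FPKM in MATa without α-factor and 263, 247 and 217 with it. MATα-playing-a libraries had 35.3, 44.4 and 37.7 FPKM without and 657, 581 and 563 with it. The strains overlapped without α-factor and lay apart with it, and the step was 6.89-fold in MATa and 15.3-fold in MATα-playing-a (difference 1.16 ± 0.15, adjusted p = 0.00369). INO1 was the 1 gene of 16 in the inositol and phospholipid list to pass (median 0.11). OPI3, an enzyme of phosphatidylcholine synthesis, was next at 0.56 ± 0.12.

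SPO11, which makes the DNA breaks that start meiotic recombination (YHL022C, chrVIII:62961-64157), had 24.9, 19.4 and 21.9 FPKM in MATa without α-factor and 269, 295 and 254 with it. MATα-playing-a libraries had 21.2, 24.8 and 21.9 FPKM without and 481, 556 and 477 with it. The stimulated groups did not overlap (difference 0.85 ± 0.15, adjusted p = 0.0377), and 9 of 12 left-out fits lost the call. The other 21 genes of the meiosis list did not pass.

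PST1 and NIS1, from the daughter-separation list, also differed. PST1, a cell wall protein (YDR055W, chrIV:563527-564861), had 731, 1054 and 783 FPKM in MATa without α-factor and 1102, 1425 and 1042 with it. MATα-playing-a libraries had 744, 872 and 810.5 FPKM without and 2605, 2951 and 2591 with it. The MATa groups overlapped, the stimulated MATα-playing-a libraries lay above all others, and the difference was 1.27 ± 0.21 (adjusted p = 0.022; lost in 6 of 12 left-out fits, adjusted p up to 0.0772). NIS1, a protein of the bud neck, had means of 427 ± 4.47 and 414 ± 34.2 FPKM in MATa and of 395 ± 26.5 and 581 ± 19.9 in MATα-playing-a (difference 0.60 ± 0.10, adjusted p = 0.0256; lost in 9 left-out fits). They were the 2 of 14 daughter-separation genes to pass, and PST1 and PIR1 the 2 of 28 cell wall integrity genes. PIR3, a paralog of PIR1, was at 0.92 ± 0.17 (adjusted p = 0.0523).

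Genes outside these lists completed the set that was above 0 in all libraries. ARI1, an aldehyde reductase, had the smallest difference of those called, 0.51 ± 0.07 (adjusted p = 0.0102), from means of 572 ± 10.9 and 1530.4 ± 52.9 FPKM in MATa and of 504 ± 18.2 and 1922 ± 67.7 in MATα-playing-a. HEM25, a mitochondrial glycine carrier that overlaps YDL118W, was at 0.62 ± 0.11 (adjusted p = 0.0400; lost in 10 left-out fits). For both genes the stimulated libraries of MATα-playing-a lay above those of MATa.

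In DIC1 and YGP1 the strains were apart without α-factor and overlapped with it. DIC1, a mitochondrial dicarboxylate carrier that overlaps YLR349W (chrXII:826977-827873), had 643, 594 and 555 FPKM in MATa without α-factor and 208, 165 and 167 with it. MATα-playing-a libraries had 272, 236 and 258 FPKM without and 140.2, 171 and 144 with it. The difference was 0.98 ± 0.15 (adjusted p = 0.0178), and the call was lost without MATα-playing-a unstimulated replicate 2 (0.93, adjusted p = 0.0578) or replicate 3 (0.99, adjusted p = 0.0557). YGP1, a secreted glycoprotein of the stress response (chrXIV:336545-337609), had means of 537 ± 80.3 and 246 ± 31.7 FPKM in MATa and of 255 ± 13.4 and 237 ± 15.5 in MATα-playing-a (difference 1.01 ± 0.17, adjusted p = 0.0256; lost in 8 left-out fits). The MATα-playing-a groups of YGP1 overlapped and its MATa groups did not. YGP1 was the 1 gene of 45 in the general stress list to pass.

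**Figure D4:**
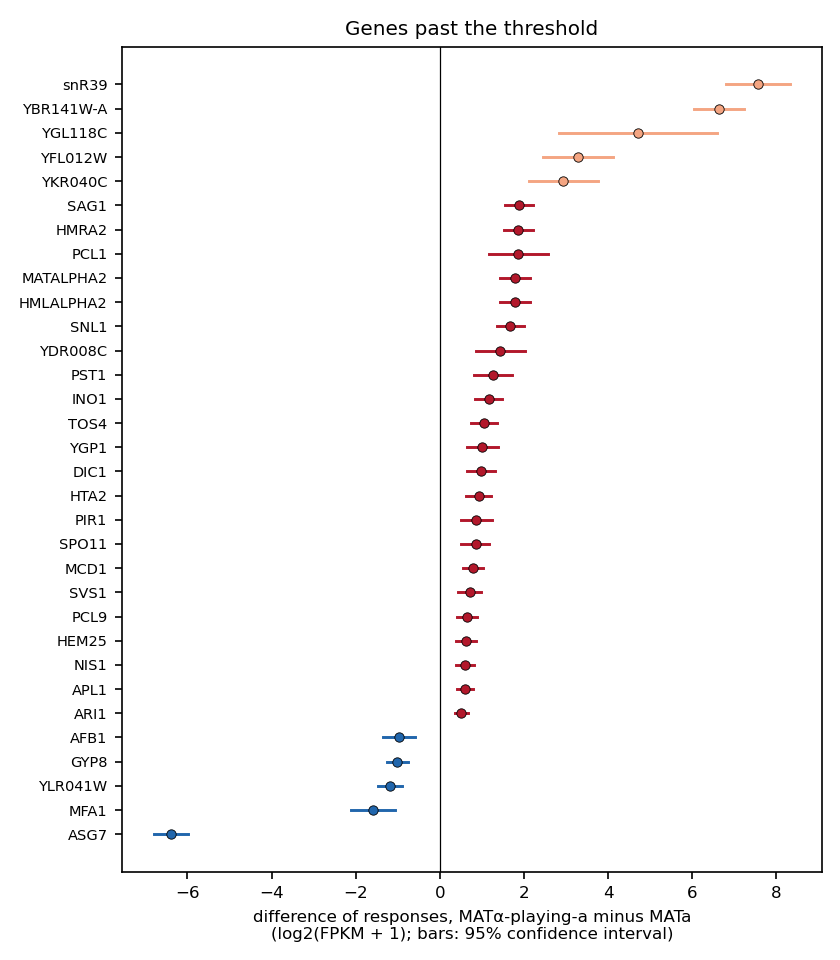
Difference of responses, MATα-playing-a minus MATa, on log2(FPKM + 1) for the 32 genes past the threshold, with 95% confidence intervals from limma. Blue marks the 5 lower genes, red the higher genes above 0 in all libraries and light red the 5 listed at 0 in some library; the values run from -6.39 for ASG7 to 7.57 for snR39.

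Some of the 32 genes lie beside a gene of cell type. Of 24 genes next to the 12 a-specific and α-specific genes, 22 were tested and 4 passed, 2 in each direction, where 0.484% of all tested genes passed. SNL1, a cochaperone of the endoplasmic reticulum (YIL016W, chrIX:321454-321933), lies 408 nt from BAR1. It had 635, 629 and 609.8 FPKM in MATa without α-factor and 134, 104 and 125 with it, and 699, 628 and 628 without and 381, 461 and 378 with it in MATα-playing-a. The strains overlapped without α-factor, and with it MATα-playing-a was 3.36-fold higher (difference 1.68 ± 0.14, adjusted p = 1.6e-04).

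GYP8, which acts on small GTPases of vesicle traffic (YFL027C, chrVI:80419-81912), lies 667 nt from STE2. It had 271, 258 and 265 FPKM in MATa without α-factor and 474, 456 and 437 with it, and 130.3, 131 and 125 without and 98.3, 125 and 107 with it in MATα-playing-a. The MATa groups lay apart and the MATα-playing-a groups overlapped (difference -1.01 ± 0.12, adjusted p = 0.00172). APL1, an adaptor of clathrin coats 1061 nt from SAG1, had means of 243 ± 14.1 and 322 ± 18.6 FPKM in MATa and of 253 ± 4.92 and 509.5 ± 18.2 in MATα-playing-a (difference 0.60 ± 0.09, adjusted p = 0.0121). The fourth was YLR041W, which overlaps AFB1. The neighbour on the other side of STE2, BST1, was at 0.10 ± 0.10, and CMI8, beside MFA1, at 1.48 ± 0.48 (adjusted p = 0.310). YDR008C, which overlaps the marker gene TRP1, had means of 117 ± 32.8 and 68.4 ± 14.1 FPKM in MATa and of 2198 ± 249.9 and 3530.5 ± 315 in MATα-playing-a (difference 1.44 ± 0.27, adjusted p = 0.0473; lost in 11 left-out fits). TRP1 itself was at 0.95 ± 0.20 (adjusted p = 0.0861), and reads of these overlapping genes cannot be told apart.

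The remaining 5 genes were listed at 0 in some libraries. A 0 in these files can be a failed estimate, although every value carries the status OK. snR39, a small nucleolar RNA of 89 nt that overlaps RPL7A, had 455, 290 and 341 FPKM in unstimulated MATa and was listed at 0 in all 3 stimulated ones, against 432, 227 and 391 and then 170.2, 147 and 231 in MATα-playing-a. YBR141W-A, 96 nt long and overlapping BMT2, had 148, 193 and 161 FPKM and then 0 throughout in MATa, against 170, 243 and 165 and then 106, 147 and 90.8 in MATα-playing-a. The zeros fell in the stimulated MATa libraries alone for both genes, as they did for YFL012W and for YKR040C, which overlaps YKR041W. YFL012W stood at 8.04 to 12.1 FPKM and YKR040C at 5.94 to 10.2 in stimulated MATα-playing-a. YGL118C was above 0 in the stimulated MATα-playing-a libraries alone, at 24.8, 18.9 and 34.2 FPKM. It met the filter only through that group, so its test is no support for a difference of responses. For the other genes listed at 0, the stimulated MATa group adds no spread, so their p-values are no support either. Fitted differences of these genes depend on the constant added to FPKM: that of snR39 was 7.57 with a constant of 1 and ran from 4.32 to 10.89 over the alternatives. That of YGL118C, 4.71 (adjusted p = 0.0401), ran from 1.82 to 7.98 and lost its call in 14 of 21 alternatives, 10 of them with a library left out. YKR040C, at 2.94 and from 0.68 to 6.10, and YFL012W, at 3.29 and from 0.89 to 6.48, lost theirs with a constant of 10, with quantile normalisation and under the culture block (adjusted p up to 0.414 and 0.189). Of 72 tested small nucleolar RNAs snR39 was the 1 that passed, and their median was 0.42; 53 lay above 0. That median ran from 0.34 to 1.06 over the alternatives, with 1.06 without MATα-playing-a unstimulated replicate 3 and 0.91 without MATa unstimulated replicate 2.

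Metabolic and ribosomal lists had no member past the threshold apart from those named. The hexose transport list had a median of -0.42, with 19 of 22 genes below 0 and 11 at an unadjusted p below 0.05, all lower. Of all tested genes 46.0% lay below 0 and 3.83% were lower at that p. The median of the list ran from -0.47 to -0.35 over the alternatives. HXT3, a low-affinity glucose transporter, had means of 3554 and 2846 FPKM in MATa and of 4970.2 and 2856 in MATα-playing-a (difference -0.48 ± 0.10, adjusted p = 0.0744). HXT6 and HXT7, near-identical high-affinity transporters whose reads can be shared, were both at -0.61 (adjusted p = 0.0925 and 0.126). HXT6 had means of 219 and 596 FPKM in MATa and of 288 and 510.2 in MATα-playing-a, and HXT7 had 228 and 649 against 301 and 557. The means of both were thus higher in MATα-playing-a without α-factor and lower with it. Of 22 genes of glycolysis and fermentation 20 lay below 0 (median -0.24); ENO2, an enolase, was at -0.47 ± 0.14 (adjusted p = 0.252).

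Ribosomal protein genes lay slightly above 0, with a median of 0.19 over 138 genes, 122 of them above 0, but quantile normalisation took the median to 0.05. The list of leucine and branched-chain synthesis had a median of 0.23 that became 0.02 in the same way. Within it OAC1, a mitochondrial carrier, was at 0.71 ± 0.14 (adjusted p = 0.0603), from means of 1731 and 1161 FPKM in MATa and of 362 and 396 in MATα-playing-a. Ribosome biogenesis, with 75 genes, had a median of 0.05. In every stimulated library summed FPKM was lower than in every unstimulated one, and the part of this in these medians was not tested.

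**Figure D5:**
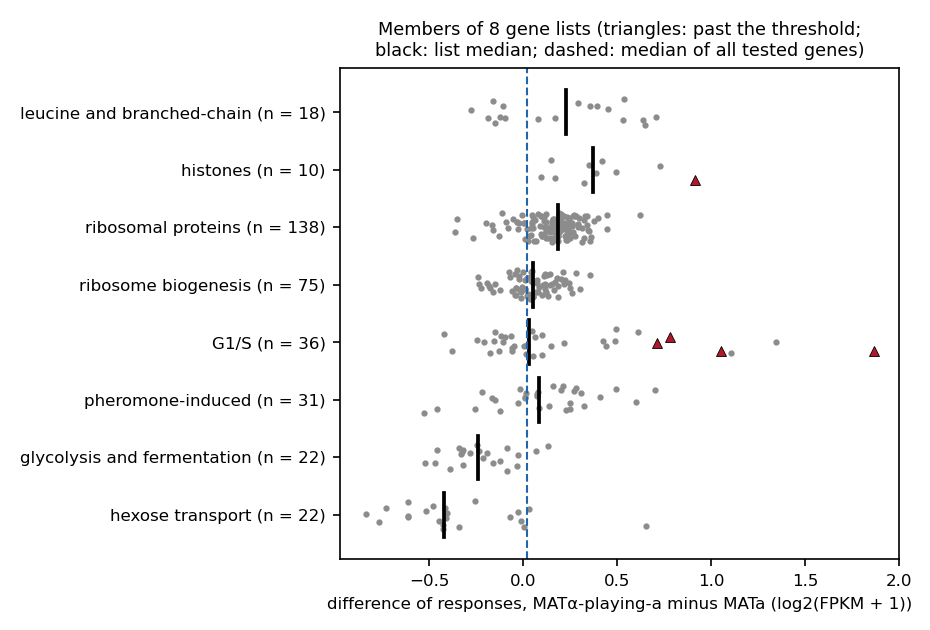
Difference of responses, MATα-playing-a minus MATa, on log2(FPKM + 1) for the members of 8 gene lists; each point is a gene, triangles are genes past the threshold, black bars are list medians and the dashed line is the median of all tested genes (0.02). Medians run from -0.42 for hexose transport to 0.37 for histones, and the 4 genes past the threshold in the G1/S list lie at 0.71 to 1.87, to the right of its median of 0.03.

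The pheromone response element TGAAACA was searched on both strands of the 300 bases before the start codon. It was found in 432 of 6020 promoters (7.2%) and in 7 of the 27 genes past the threshold that had a promoter window (25.9%). These were NIS1, HEM25, SVS1, SPO11, INO1 and the identical pair MATALPHA2 and HMLALPHA2. The windows of ASG7, MFA1 and SAG1 did not hold these letters, and those of STE2, MFA2 and AGA1 did.

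Pearson's r of log2 values was 0.955 to 0.979 in the 12 pairs of libraries within a group and 0.849 to 0.972 in the 54 pairs between groups. Genes at 0 numbered 574 to 752 per library. The files hold no read counts and the depth is unknown, so no counting error is given. Labels name the replicates as biological, and p-values measure the spread between libraries of a group. The main fit treated the 12 libraries as independent, although both harvests came from the same cultures. Its p-values thus do not measure the spread of responses within cultures. All libraries were sequenced in 1 lane.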

How the data were processed

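RNA sequencing of 12 yeast libraries was analysed from 1 table per library, which lists FPKM values for 7126 genes with coordinates and confidence bounds. Tools named in the submitters' processing notes are Cufflinks 0.9.3, TopHat 1.1.4 and CASAVA 1.8.2; how they were run is not given in the sources used here. The FPKM values are as deposited by the authors; summed FPKM times gene length came to 5.02 to 6.225 times what the unit allows, so they carry a further scaling of unknown source. No step of whole reads was found in low values, and 81.8% of upper bounds lay 2 square roots of the FPKM above it (within 0.01 in the ratio of variances), so depth is unknown and the bounds were not used. The build is not stated; coordinates equalled those of R64 for 6036 of 6048 genes matched by name.

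Values entered as log2(FPKM + 1), which understates changes of low genes, for the 6608 genes with a mean of at least 1 FPKM. The test was limma 3.58.1 in R 4.3.3, with 1 model over all 4 groups, eBayes with an intensity trend, the contrast of the 2 responses and Benjamini-Hochberg adjusted p below 0.05; errors of differences are SE and those of levels SD. It was tested on simulated data with independent noise and no shared cultures, which say nothing of genes listed at 0 in whole groups or of pairing. Tables and promoter searches used Python 3.11.15 with pandas 2.3.3, numpy 2.4.6 and matplotlib 3.10.9.

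Named genes are the 12 with the largest difference per direction among called genes above 0 in all libraries whose mean in any group reached 10 FPKM, 4 per direction with zeros, all genes of cell type, up to 4 called genes per list and the 5 highest pheromone-induced genes. HEM25, APL1, ARI1 and YKR040C, the called genes outside that rule, the neighbours of cell-type genes and further list members were named after their values were seen. The genes examined, the gene lists and the tests were chosen with earlier results of these data known. Alternatives were a constant of 0.1 or of 10, no filter or a filter at a mean of 10 FPKM, rescaling by median ratios, quantile normalisation, 2 replicate blocks, no trend, genes under 200 nt left out, a minimum difference of 1, and leaving out each of the 12 libraries singly.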

Additional observations from a re-analysis of the deposited data

Results flagged for a closer look

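The genes below are those in which the test of the difference itself found the response of one strain unlike that of the other. Values are the response of MATα-playing-a minus that of MATa on log2(FPKM + 1). Lower responses were found for ASG7 (-6.39), MFA1 (-1.58), YLR041W (-1.18), GYP8 (-1.01) and AFB1 (-0.98). Among genes of the α cell and the mating-type loci, higher responses were found for SAG1 (1.88) and for HMRA2 (1.87), MATALPHA2 (1.79) and HMLALPHA2 (1.79), which share bases. Among genes whose mean levels were lower with α-factor in both strains they were found for PCL1 (1.87), SNL1 (1.68), TOS4 (1.05), YGP1 (1.01, with overlapping MATα-playing-a groups), DIC1 (0.98), HTA2 (0.92), PIR1 (0.87), MCD1 (0.78), SVS1 (0.71) and PCL9 (0.65). Among the other genes above 0 in all libraries they were found for YDR008C (1.44), PST1 (1.27), INO1 (1.16), SPO11 (0.85), HEM25 (0.62), NIS1 (0.60), APL1 (0.60) and ARI1 (0.51). Genes listed at 0 in some library were snR39 (7.57), YBR141W-A (6.63), YGL118C (4.71), YFL012W (3.29) and YKR040C (2.94). Each of them had a group at 0 throughout, which adds no spread, and YGL118C met the filter only through stimulated MATα-playing-a. Their tests are therefore no support for a difference of responses. Groups of 3 libraries are too small for a check of single libraries that stand apart from their group.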

How the results depend on the processing

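Of 22 alternatives fitted to all genes, none reversed the sign of any of the 32 genes past the threshold. Some named genes that did not pass changed sign, as the medians of the a-specific and α-specific lists did. Of the named-gene values 880 kept their side of the threshold, 161 lost a call and 8 gained one. Past the threshold in every alternative that tested them were 12 genes: ASG7, MFA1, YLR041W, GYP8, SAG1, MATALPHA2, HMLALPHA2, HMRA2, SNL1, INO1, snR39 and YBR141W-A. For snR39 and YBR141W-A every stimulated MATa library was listed at 0. That group adds no spread, so passing in every alternative is no support for a difference in either gene. Both harvests came from the same cultures, but the labels do not tie replicate numbers to cultures. Correlations of the deviations of same-numbered libraries (0.34, -0.068 and 0.226 in MATa, and -0.037, -0.112 and 0.01 in MATα-playing-a) were not above 0.1 in every pair, so the numbers were not taken to pair libraries. With 3 replicates such correlations cannot exclude a pairing. Between the strains same-numbered libraries had 0.376, 0.232 and 0.083 without α-factor and -0.361, 0.257 and 0.364 with it. With a replicate block by number 25 genes passed (21 higher, 4 lower), and with a replicate block by culture 15 passed (11 higher, 4 lower), 14 of them among the 32. APL1, ARI1, HTA2, MCD1 and TOS4 lost their call under the culture block alone (adjusted p = 0.0545 to 0.0800); the cause was not tested. A difference of at least 1 on the log2 scale left 20 genes, 16 of them higher. Quantile normalisation gave 8 lower genes and a median over all genes of -0.02, and no filter gave a median of 0.00. With a library left out 21 to 46 genes passed, 17 to 42 higher and 4 to 8 lower, with a median over all genes of 0.01 to 0.03; 21 to 30 of the 32 remained, and 19 remained in all 12 fits. There were 46 genes without MATa stimulated replicate 2, 25 (17 higher, 8 lower) without MATα-playing-a unstimulated replicate 1 and 21 without its replicate 2. BAR1 passed with no trend (0.83, adjusted p = 7.0e-04) or no filter (adjusted p = 3.2e-04), as did MF(ALPHA)1. BAR1 was listed at 0 in every MATa library and MF(ALPHA)1 in every MATα-playing-a library. Groups at 0 throughout add no spread, so these p-values are no support for a difference of responses. Unknown depth limits what can be said of genes near 0.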

Other observations

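Other gene lists held no gene past the threshold. All 12 genes of copper uptake and storage had a difference of responses above 0, with a median of 0.23 that ran from 0.13 to 0.40 over the alternatives; the metallothionein copies CUP1-1 and CUP1-2, whose reads can be shared, were at 0.46 ± 0.16 and 0.47 ± 0.13 (limma adjusted p = 0.347 and 0.226). Of 8 galactose genes 7 lay below 0 (median -0.14). Of 30 heat shock genes 20 lay below 0 (median -0.07), and of 30 iron genes 21 lay above 0 (median 0.05). Medians of the respiration list (48 genes, 0.07), the methionine and sulfate list (38 genes, 0.07), the ergosterol list (30 genes, 0.02) and the phosphate list (26 genes, -0.03) were near that of all tested genes, 0.02. Some single genes of these and the earlier lists came close to the threshold without passing it: EGT2, a daughter-cell wall gene, at 0.64 ± 0.13 (adjusted p = 0.0821), BAT2, an aminotransferase of branched-chain amino acids, at 0.45 ± 0.09 (adjusted p = 0.0704), and ADE2, an enzyme of purine synthesis often used as a marker, at -0.53 ± 0.12 (adjusted p = 0.0925).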
